A study of Rattus norvegicus with 13 samples.

Results

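The microRNAs rno-miR-146a-5p, rno-miR-146b-5p and rno-miR-155-5p are grouped here as microRNAs induced through NF-kB, a transcription factor that drives inflammatory gene expression. They were taken by name from the rat mature miRNAs of the deposited table, and are 3 of 460 such features. All 3 passed the filter on low counts that left 419 for testing. They were measured in whole kidneys of 13 rats, all female and of the Wistar strain WAG/RijCmcr. At the time of irradiation the rats were 11 to 12 weeks old, with a weight near 155 g. Control rats (n = 4) were age matched, received 0 Gy and had no medication. A dose of 13 Gy was given to the irradiated rats (n = 4), who had no medication, as leg-out partial body irradiation, in which a single hind limb is kept outside the beam. The X-rays were of 320 kVp and the dose rate was 1.75 Gy per minute. Irradiated rats of the lisinopril group (n = 5) had the same exposure. From day 7 to the end their drinking water held lisinopril, which blocks angiotensin converting enzyme, at a daily dose of about 24 mg per square metre. Supportive care was saline injections on days 3 to 7 and the antibiotic enrofloxacin until day 14 after irradiation; the sources used here do not say whether controls had it. All kidneys were taken on day 35. The labels describe separate animals and name no litter, batch or pairing.

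NF-kB is activated by Toll-like and interleukin-1 receptors and raises transcription of the miR-146a and miR-155 genes. Its control of the miR-146b gene was not examined here. The miR-146 paralogs repress the adaptor proteins IRAK1 and TRAF6, which carry the signal of those receptors, and so can form a negative feedback loop. miR-155, processed from the non-coding transcript of the Mir155hg gene, is abundant in activated macrophages and lymphocytes, where its targets include the inositol phosphatase SHIP1 and the signalling suppressor SOCS1. In kidney these miRNAs are made by resident and infiltrating leukocytes and by tubular cells, and in whole tissue fewer cells of a type and less RNA per cell cannot be told apart.

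The mature sequences show which of the 3 can share targets and which reads are hard to tell apart. They are given 5′ to 3′ from RefSeq (GRCr8), with the seed, bases 2 to 8, in capitals.
rno-miR-146a-5p: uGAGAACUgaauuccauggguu
rno-miR-146b-5p: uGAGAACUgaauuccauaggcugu
rno-miR-155-5p: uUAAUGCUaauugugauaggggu
The paralogs have the same seed, GAGAACU, and no other rat miRNA of the table with a RefSeq sequence carries it (415 of 460 names matched). No other carries UAAUGCU, the seed of miR-155-5p. Counted from 1 at the 5′ end, miR-146a-5p and miR-146b-5p are identical over their first 17 bases. Over the 22 bases of miR-146a-5p they differ by 2 substitutions, G18A and U21C (the base of miR-146a-5p first), and miR-146b-5p is 2 bases longer. A read that ends before base 18 therefore cannot be assigned to either. The sources used here do not say how the authors assigned such reads, so the split between the paralogs is uncertain to that extent.

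The hairpins show where each miRNA lies and which arm it comes from. Both annotated mature arms are in capitals, with the 5p arm first.
Mir146a: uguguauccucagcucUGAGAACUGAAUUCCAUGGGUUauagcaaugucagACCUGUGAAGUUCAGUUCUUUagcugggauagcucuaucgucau
Mir146b: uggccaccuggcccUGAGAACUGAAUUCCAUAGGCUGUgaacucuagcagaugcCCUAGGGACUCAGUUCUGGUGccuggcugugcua
Mir155: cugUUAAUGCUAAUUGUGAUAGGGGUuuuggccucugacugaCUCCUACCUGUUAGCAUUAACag
In GRCr8 the 3 genes lie on 3 chromosomes: Mir146a at chr10:28349996-28350090 on the minus strand, Mir146b at chr1:255144860-255144947 on the plus strand, and Mir155 at chr11:37261114-37261178 on the plus strand. RefSeq annotates each as a miRNA gene, and Mir155 lies within the non-coding gene Mir155hg. Of the opposite arms, miR-146a-3p had 2 to 12 counts per library and 90 counts in all, against 81324 for miR-146a-5p. The 3p arms of Mir146b and Mir155 were not analysed here.

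Rat mature counts totalled 1194175 in control library 2 and 4885082 to 11095939 in the other 12 libraries. Control library 2 also stood apart in having 37 rat miRNAs at 0, against 0 to 3 elsewhere, and 3 counts, the limit that a count of 0 allows, were worth 3.19 CPM there (CPM is the count scaled to library size) against 0.289 to 0.561 CPM. Its composition differed too. Of its mature counts 29% fell on miRNAs named for other species, against 10.3% to 14.6% elsewhere. Across miRNAs its r with the other controls was 0.972 to 0.974, the lowest of all pairs within groups. Floors and intervals of single libraries cover counting error only, since reads without molecular identifiers are not independent molecules. The tissue label was checked on 8 miRNAs of kidney epithelium. None was at 0 in any library, and their summed level was 351535 to 742935 CPM. Most of this sum was miR-10a-5p (by group means 396298.1 of 573473.8 CPM in controls), so the check is a weak one. The hepatocyte marker miR-122-5p was not analysed here.

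In every library miR-146a-5p had the most reads of the 3, miR-146b-5p came next and miR-155-5p was lowest. By read count, miR-146a-5p ranked between 50 and 91 of 460 rat miRNAs, miR-146b-5p between 95 and 153, and miR-155-5p between 181 and 249. Mean levels over all 13 libraries were 841.1, 191.2 and 29.4 CPM. These are reads per sequence with no correction for how well each sequence is captured in a library.

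**Figure D1:**
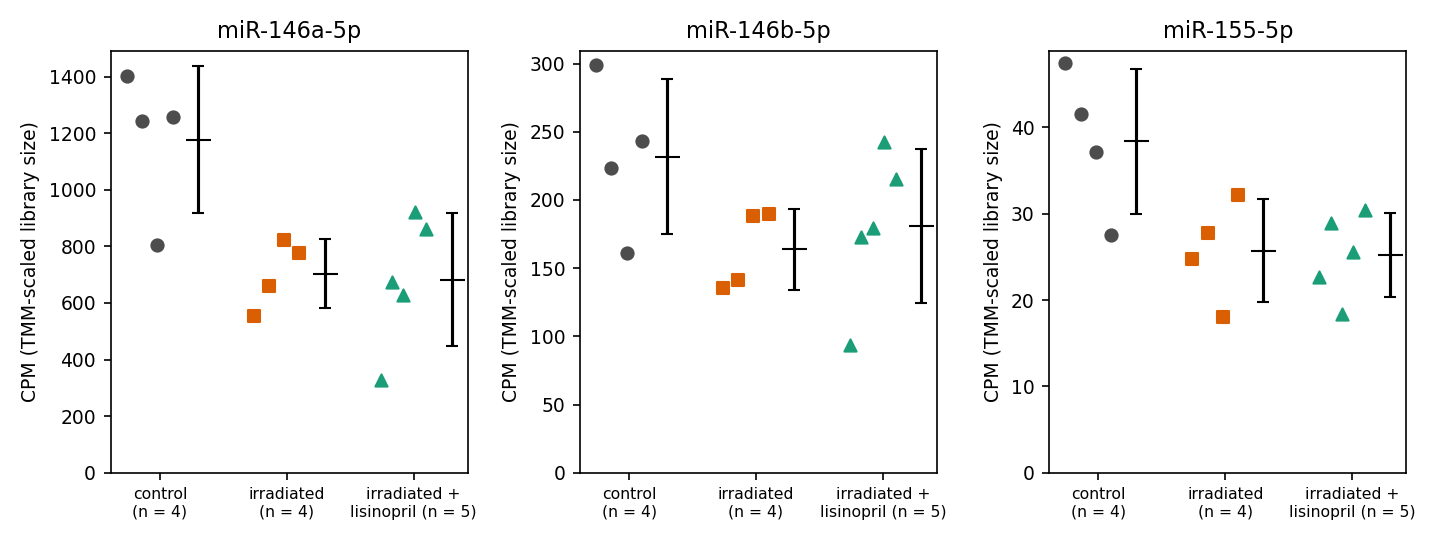
Level of each miRNA in CPM (y axis, from 0, TMM-scaled library size) in each kidney library (points), with the group mean ± SD beside the points, for 4 control rats, 4 irradiated rats and 5 irradiated rats given lisinopril. For miR-146a-5p, 3 of the 4 controls lie at 1243.5 CPM or more, while the other control (804.1 CPM) lies inside the range of the irradiated rats, 327.1 to 922.9 CPM.

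miR-146a-5p, the more abundant paralog, had lower mean levels in irradiated kidneys than in controls, with and without the drug. In controls 1 to 4 it was at 1402.9, 1243.5, 804.1 and 1257 CPM, in irradiated rats 1 to 4 at 552.9, 661.3, 821.8 and 778 CPM, and in lisinopril rats 1 to 5 at 327.1, 673.4, 629.8, 922.9 and 859.7 CPM. Control 3 was low among the controls and overlapped both irradiated groups; the other 3 controls were above all 9 irradiated rats. Group means were 1176.9 ± 258.8 CPM (SD, n = 4) in controls, 703.5 ± 121.1 CPM (n = 4) after irradiation and 682.6 ± 233.7 CPM (n = 5) with lisinopril. In irradiated against control kidneys its log2 fold change came to -0.74 (SE 0.26, adjusted p = 0.105), which does not pass the threshold. The two-sided exact permutation test, for this miRNA alone and unadjusted, gave p = 0.0571, where 4 against 4 cannot go below 0.0286. With lisinopril against control its log2 fold change came to -0.79 (SE 0.244, adjusted p = 0.0745, unadjusted exact permutation p = 0.0476).

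When both irradiated groups were set against control, miR-146a-5p fell to 0.589 of the control level. The 9 irradiated rats averaged 691.9 ± 181.4 CPM, and 6 of the 9 lay below every control. The fit gave a log2 fold change of -0.76 (SE 0.214, 95% interval -1.22 to -0.31, adjusted p = 0.0433 by edgeR's quasi-likelihood test). The unadjusted exact permutation p was 0.00979. The edgeR call is close to the threshold and rests on single libraries. It was lost without control 1 (adjusted p = 0.149), control 2 (0.0996), control 4 (0.101), irradiated 1 (0.0838), irradiated 2 (0.0705), lisinopril 2 (0.0652) or lisinopril 3 (0.0613). It was also lost with limma-voom (0.0581), with library totals in place of TMM (0.0958) and with library sizes that leave out the most abundant miRNA (0.0645). The direction was the same under all 20 alternatives, with log2 fold changes from -0.91 to -0.59 and adjusted p-values from 0.0114 to 0.149.

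miR-146b-5p, the paralog on chromosome 1, passed the test in none of the 4 comparisons. Its level was 299.1, 223.4, 160.9 and 243.2 CPM in controls 1 to 4, and 135.3, 141.4, 188.4 and 189.8 CPM in irradiated rats 1 to 4. In lisinopril rats 1 to 5 it was 93.5, 172.8, 179.6, 242.2 and 215.6 CPM. As for its paralog, control 3 was the lowest control and lisinopril 1 the lowest of all rats, and the 3 groups overlapped. Means were 231.7 ± 57 CPM in controls (n = 4), 163.7 ± 29.4 CPM after irradiation (n = 4) and 180.8 ± 56.3 CPM with lisinopril (n = 5). Against control its log2 fold change came to -0.50 (SE 0.252, adjusted p = 0.257) in irradiated kidneys, -0.36 (SE 0.238, adjusted p = 0.42) with lisinopril and -0.43 (SE 0.211, adjusted p = 0.231) in both groups together. The interval of the last, -0.88 to 0.02, includes no difference.

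miR-155-5p, the least abundant member, was lower on average in both irradiated groups by amounts that did not pass the test. Its level was 47.4, 41.5, 37.2 and 27.5 CPM in controls 1 to 4, 24.7, 27.8, 18 and 32.2 CPM in irradiated rats 1 to 4, and 22.7, 28.9, 18.4, 25.6 and 30.4 CPM in lisinopril rats 1 to 5. The value of control 2 rests on 39 counts, with an interval of 29.5 to 56.7 CPM, whereas the other 12 libraries had 129 to 386 counts. Control 4 was the lowest control and lay inside the range of the irradiated rats. Means were 38.4 ± 8.38 CPM (n = 4), 25.7 ± 5.96 CPM (n = 4) and 25.2 ± 4.83 CPM (n = 5). Against control its log2 fold change came to -0.57 (SE 0.22, adjusted p = 0.135) in irradiated and -0.60 (SE 0.207, adjusted p = 0.0971) in lisinopril kidneys. For both groups together it was -0.59 (SE 0.183, adjusted p = 0.0682, unadjusted exact permutation p = 0.00979). The comparison of both groups passed with DESeq2 (adjusted p = 0.0336), without control 4 (0.0392) and without irradiated 4 (0.0385).

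**Figure D2:**
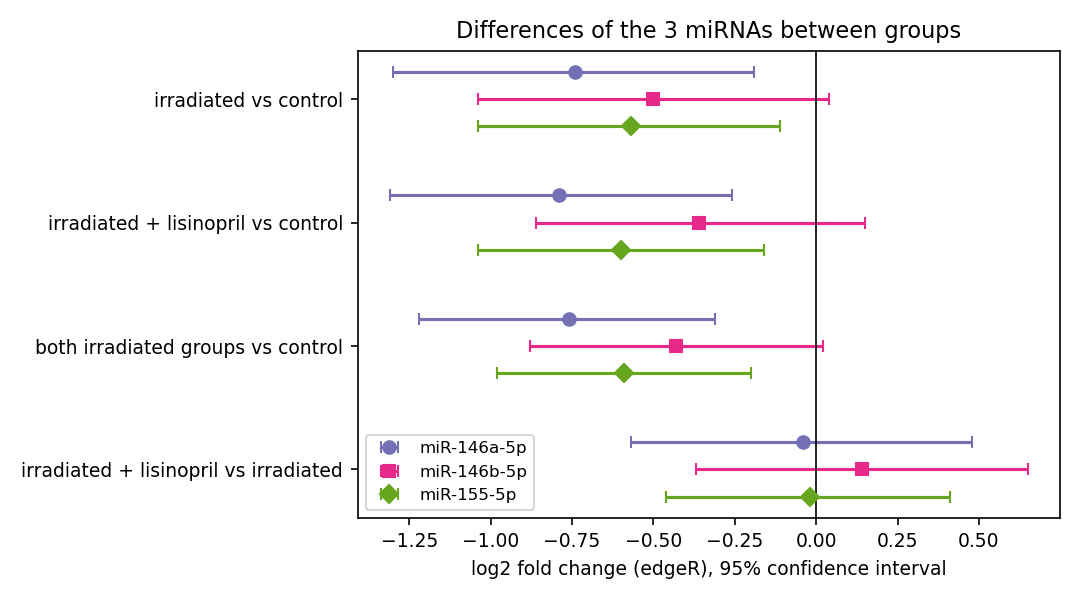
Log2 fold change (x axis, edgeR) of each miRNA in the 4 comparisons, with its 95% confidence interval; the vertical line marks no difference. The 9 values against control are all negative, from -0.79 to -0.36, and their comparisons share the same 4 control libraries, while the 3 values for lisinopril against irradiated kidneys lie between -0.04 and 0.14.

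Counted over the members, 0 of 3 passed in irradiated against control kidneys by edgeR, where 1.19% of the 419 tested miRNAs were called lower. At an unadjusted p under 0.05 there were 2, beside 93 of all 419 in either direction. DESeq2 and limma-voom called 0 of the members, while DESeq2 called 13 and limma-voom 5 of all miRNAs lower. With lisinopril against control 0 of 3 passed, beside 5.49% of all tested miRNAs called lower. Of the members 2 were under 0.05 unadjusted, beside 95 of all 419 in either direction. DESeq2 called 1 member (miR-146a-5p), beside 23 of all miRNAs called lower, and limma-voom called 0 members, beside 18 called lower. For both irradiated groups against control 1 of 3 passed, again beside 5.49% called lower. Of the members 2 were under 0.05 unadjusted, beside 100 of all 419 in either direction. DESeq2 called 2 members, beside 23 of all miRNAs called lower, and limma-voom called 0 members, beside 20 called lower. In none of these comparisons did a member separate the groups without overlap. The share of all tested miRNAs that lay lower without overlap was 4.53% in irradiated, 7.4% in lisinopril and 3.1% in both groups against control. These comparisons share the 4 control libraries. The median log2 fold change over all 419 miRNAs was 0.02, 0.05 and 0.04 in the same order.

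Lisinopril added to irradiation was not accompanied by a detectable difference in any of the 3 miRNAs. For miR-146a-5p the log2 fold change between irradiated kidneys with and without the drug was -0.04 (SE 0.245, adjusted p = 0.949), with an interval of -0.57 to 0.48. For miR-146b-5p it was 0.14 (SE 0.238, adjusted p = 0.783, interval -0.37 to 0.65) and for miR-155-5p -0.02 (SE 0.206, adjusted p = 0.968, interval -0.46 to 0.41). The intervals leave room for differences of up to 0.675-fold or 1.57-fold, so the data do not show that the drug left these miRNAs alone. The exact permutation tests gave p = 0.817, 0.794 and 0.952. Over all miRNAs 0% were called by edgeR, with 63 at an unadjusted p under 0.05, 9 called by DESeq2 and 2 by limma-voom; none of these calls was a member. Without irradiated 4 edgeR called 47 miRNAs, again with 0 of the 3 members among them. The groups did not overlap for 4.3% of all tested miRNAs and 0 of the 3 members.

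The paralogs varied together from rat to rat, and miR-155-5p did not follow them as closely. Over the 13 libraries log2 CPM of miR-146a-5p and miR-146b-5p correlated at r = 0.939 (Spearman's rho 0.929), and deviations from the group means at r = 0.978. Without the 2 libraries farthest from the median of miR-146a-5p, lisinopril 1 and control 1, r was 0.839. Of the 282 other miRNAs of at least 10 CPM, miR-146b-5p was the most like miR-146a-5p. For miR-146a-5p and miR-155-5p r was 0.582 (rho 0.533), 0.207 within groups and 0.432 without the same libraries. All points share library depth and scaling, so these are descriptions only.

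**Figure D3:**
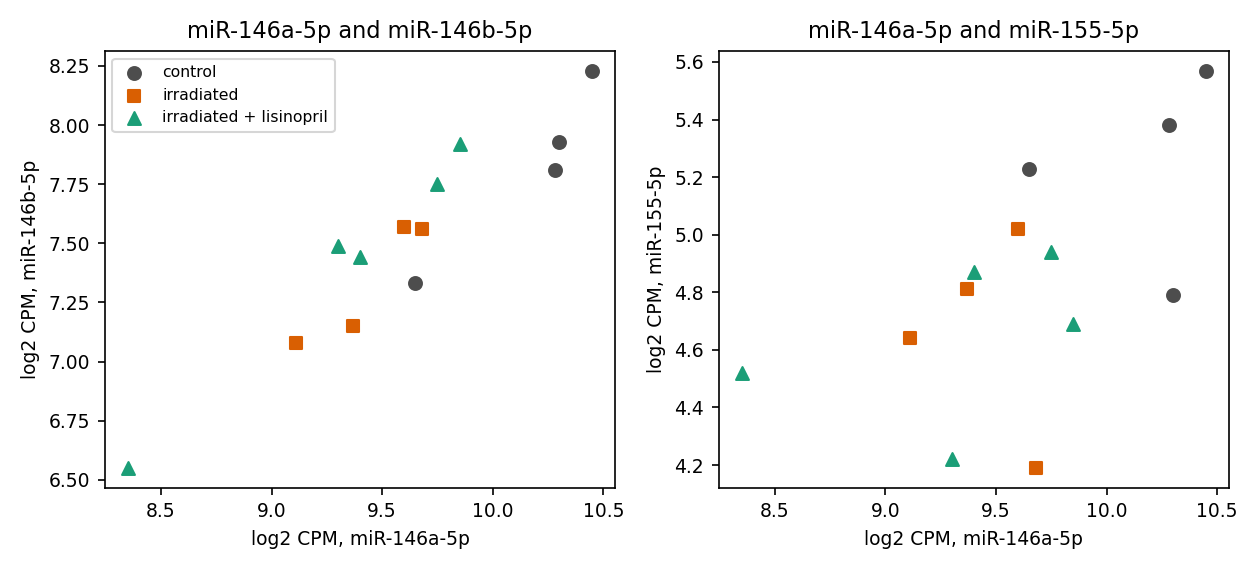
Log2 CPM of miR-146a-5p (x axis) against miR-146b-5p (left) and miR-155-5p (right), a point per kidney library and a marker per group; axes do not start at 0. The paralogs lie along a line (r = 0.939), with the control points to the right of the irradiated ones at a given level of miR-146b-5p, while miR-155-5p scatters more widely (r = 0.582).

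The number of miR-146a-5p reads per miR-146b-5p read was highest in controls and lowest with lisinopril. This ratio is taken within a library and does not depend on scaling; it was examined after the values were seen and is given without a test. It was 4.69, 5.57, 5 and 5.17 in controls 1 to 4, 4.09, 4.68, 4.36 and 4.10 in irradiated rats 1 to 4, and 3.50, 3.90, 3.51, 3.81 and 3.99 in lisinopril rats 1 to 5. The 3 groups did not overlap, with means of 5.11 ± 0.367, 4.31 ± 0.278 and 3.74 ± 0.226 (SD). At the border of the groups the order of single libraries is within counting error: control 1 had a 95% interval of 4.48 to 4.91 and irradiated 2 of 4.38 to 4.99, and irradiated 1 (3.77 to 4.44) overlapped lisinopril 5 (3.79 to 4.20). Away from the border, the intervals of control 3 (4.74 to 5.27) and control 4 (4.93 to 5.42) lay above those of irradiated 1, irradiated 3 (4.11 to 4.63) and irradiated 4 (3.84 to 4.38). Control 2, with 1169 and 210 reads, had the widest interval, 4.80 to 6.48.

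To set this beside other miRNAs, the ratio of miR-146a-5p to each of the 282 others of at least 10 CPM was taken in the same way. It lay lower in irradiated than in control libraries without overlap for 25.9% of them, and lower in lisinopril than in control libraries for 27.3%. It lay lower in lisinopril than in irradiated libraries without overlap for 1.06%. All 3 groups were in the order control, irradiated, lisinopril without overlap for 1 of 282 (0.355%), which was miR-146b-5p. That order was counted after the values were seen. miR-146b-5p is also, of the 282, the miRNA most correlated with miR-146a-5p (r = 0.939). The 282 are therefore no like-for-like background, and the share does not measure how rare the order is. The ratio to miR-155-5p overlapped between all groups, at 21.6 to 45.7 in controls, 22.4 to 45.7 after irradiation and 14.4 to 36 with lisinopril.

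**Figure D4:**
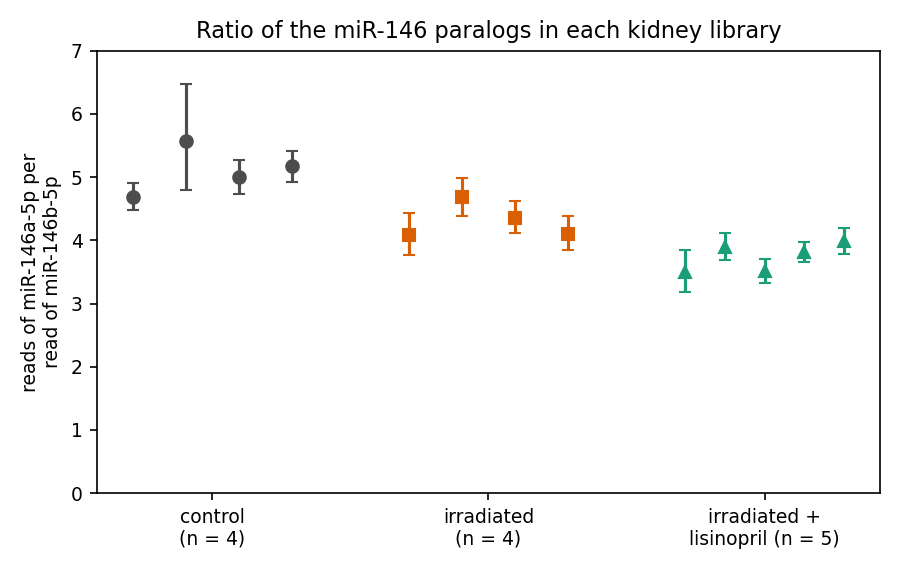
Reads of miR-146a-5p per read of miR-146b-5p (y axis, from 0) in each kidney library, by group; bars are 95% Clopper-Pearson intervals, which cover counting error only. Controls lie between 4.69 and 5.57, irradiated rats between 4.09 and 4.68 and lisinopril rats between 3.50 and 3.99, with intervals that overlap at the group borders.

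Counts close to those of miR-146b-5p stand in 2 further entries of the table. A predicted feature on chromosome 1 (251558040 to 251558146 in the authors' coordinates, for which the processing notes name rn4) held 93.7% to 97.9% of the counts of miR-146b-5p in 12 libraries and 0 in control 2, where miR-146b-5p had 210. A second predicted feature inside it (251558049 to 251558132) held 93.7% to 97.9% in 9 libraries and 0 in the other 4. Features outside the rat mature miRNAs were searched for counts in near-constant proportion to a member, over at least 5 libraries, with a coefficient of variation of the proportion under 5% and a mean between 20% and 200%. None was found for miR-146a-5p or miR-155-5p. The 2 predicted features were not tested, and their position relative to Mir146b was not analysed here.

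Over the 13 libraries, the miRNAs most like each member came largely from other miRNA families or clusters. These r pool the 3 groups of rats, so they hold differences between groups as well as between rats. Of the 282 others, 45 had r above 0.5 with miR-146a-5p, 47 with miR-146b-5p and 29 with miR-155-5p. After its paralog, miR-146a-5p was most like miR-411-5p, of the imprinted Dlk1-Dio3 cluster (r = 0.786), and the myeloid miR-223-3p (0.782). For miR-146b-5p they were miR-7a-5p, an endocrine and neuronal miRNA (0.815), and miR-223-3p (0.797). For miR-155-5p they were miR-96-5p of the miR-183 cluster (0.78), miR-190a-5p (0.705) and miR-19a-3p of the miR-17-92 cluster (0.705).

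Other miRNAs transcribed through NF-kB had values on both sides of 0, and their difference from the 3 members was not tested. Of 8 tested, 0 passed in irradiated against control kidneys by edgeR (3 at an unadjusted p under 0.05, 1 by DESeq2, 0 by limma-voom), with a median log2 fold change of -0.01. Over all 419 miRNAs 93 were under 0.05 unadjusted, DESeq2 called 24 and limma-voom 7, and the median was 0.02. On the list, the 3 with the smallest p were miR-223-3p (-0.61, adjusted p = 0.065), miR-21-5p, a broadly expressed miRNA of injured tissue (-0.60, adjusted p = 0.143), and miR-221-3p (0.31, adjusted p = 0.188). With lisinopril against control 0 of 8 passed (2 unadjusted, 0 by DESeq2 and by limma-voom), and the median was 0.01. Over all 419 there were 95 unadjusted, 29 by DESeq2 and 20 by limma-voom, and the median was 0.05. For both groups 1 of 8 fell, miR-223-3p, beside 5.49% of all 419, and the median was 0.11 (0.04 over all 419). Between irradiated kidneys with and without lisinopril 0 of 8 passed (2 unadjusted, 0 by either other tool, median 0.15), with miR-222-3p at -0.44 (adjusted p = 0.248) and miR-9a-5p at 0.49 (adjusted p = 0.261). Over all 419 there were 63 unadjusted in that comparison, 9 by DESeq2 and 2 by limma-voom, and the median was -0.02.

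miRNAs that target proteins of the NF-kB pathway gave a similar count. Of 11 on the list 10 were tested, and 0 passed in irradiated against control kidneys (2 unadjusted, 1 by DESeq2, 0 by limma-voom, median -0.01). Over all 419 there were 93 unadjusted, 24 by DESeq2 and 7 by limma-voom, with a median of 0.02. On the list, the smallest p after that of miR-223-3p belonged to miR-10a-5p, the most abundant kidney miRNA here (-0.54, adjusted p = 0.0931). With lisinopril against control 0 of 10 passed (3 unadjusted, 1 by DESeq2, 0 by limma-voom, median 0.02), with miR-199a-5p at 0.34 (adjusted p = 0.0744) and let-7a-5p at 0.33 (adjusted p = 0.211). Over all 419 there were 95 unadjusted, 29 by DESeq2 and 20 by limma-voom, with a median of 0.05. For both groups 1 of 10 fell, again miR-223-3p (median -0.01), beside 5.49% of all 419. With against without the drug 0 of 10 passed (2 unadjusted, 0 by either other tool, median 0.12). Over all 419 there were 63 unadjusted, 9 by DESeq2 and 2 by limma-voom.

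Leukocyte miRNAs are given beside the members because blood cells are a main source of miR-155 and miR-146a. The summed level of the 6 on the list was 748.4 to 1074.9 CPM in control, 905.2 to 1358.8 CPM in irradiated and 730.2 to 1505.4 CPM in lisinopril libraries, and none of the 6 was at 0 in any library. Most of this sum was miR-150-5p, by group means 478 of 897.2 CPM in control, 756.8 of 1085.4 in irradiated and 616.9 of 980.9 in lisinopril libraries. The sum is therefore not a measure of leukocyte content. miR-223-3p, typical of neutrophils and monocytes, was at 40.3 to 54.9 CPM in controls, 26.7 to 36.7 CPM after irradiation and 31.6 to 41.4 CPM with lisinopril. It fell in both irradiated groups against control (log2 fold change -0.48, SE 0.129, adjusted p = 0.0375). That call was lost under 10 of 20 alternatives, among them leaving out control 1 (adjusted p = 0.147), control 2 (0.069), control 4 (0.0872), irradiated 1 (0.0689), irradiated 3 (0.0518), lisinopril 2 (0.0551), lisinopril 3 (0.058) or lisinopril 4 (0.051). The pan-leukocyte miR-142-3p (-0.36, adjusted p = 0.386) did not pass, nor did the lymphocyte miRNA miR-150-5p, which had a positive value (0.51, adjusted p = 0.338). In all 1 of 6 passed, beside 5.49% of all 419 called lower, and 4 of the 6 values were negative. The median was -0.21, against 0.04 over all 419. The part of leukocyte content in the levels of the members was not tested.

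**Figure D5:**
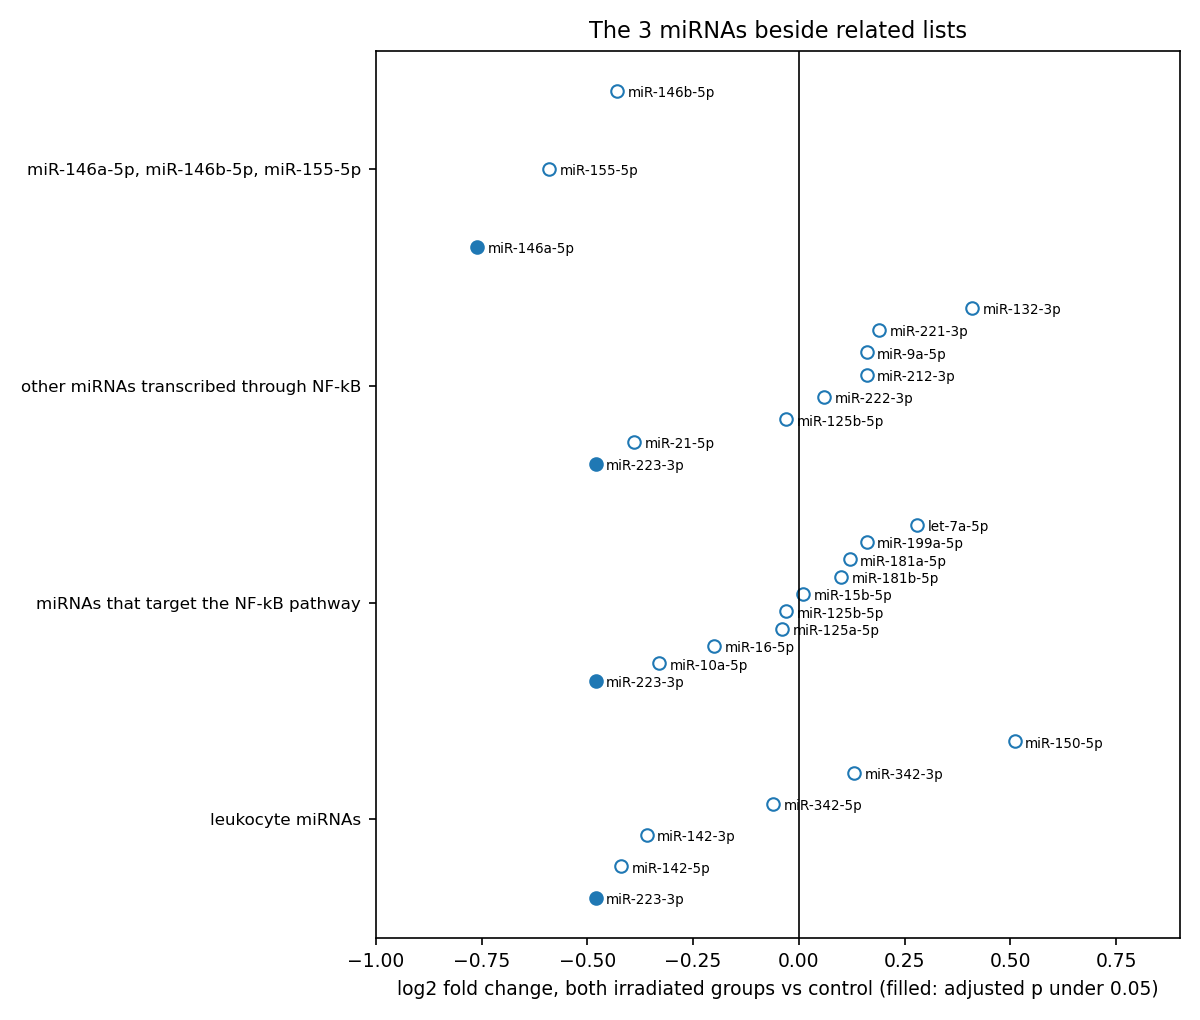
Log2 fold change (x axis) of the 3 miRNAs and of the tested members of 3 lists in both irradiated groups against control; filled points have an adjusted p under 0.05 and miR-223-3p stands in all 3 lists. Besides miR-146a-5p (-0.76) the only filled point is miR-223-3p (-0.48), and the other listed miRNAs lie on both sides of 0.

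Markers of other cell types in the same comparison gave 0 of 8 for epithelium (2 unadjusted), 0 of 2 for endothelium (1 unadjusted) and 0 of 3 for erythroid cells (0 unadjusted), with 0 called by DESeq2 or limma-voom in each. Over all 419 miRNAs 100 were under 0.05 unadjusted, and edgeR called 9 higher and 23 lower. In either direction DESeq2 called 34 and limma-voom 27. Of 4 smooth muscle and fibroblast miRNAs, miR-214-3p rose (log2 fold change 0.71, adjusted p = 0.0456), a call lost under 13 of 20 alternatives, among them leaving out control 1 (adjusted p = 0.153), control 2 (0.101), control 4 (0.101), lisinopril 2 (0.0775), lisinopril 3 (0.061), lisinopril 4 (0.0795) or lisinopril 5 (0.0639). Of 3 skeletal and cardiac muscle miRNAs, miR-499-5p fell (-0.75, adjusted p = 0.0238), a call lost without control 2 (0.0918) and with library totals (0.0603). Neither miR-1-3p (-0.78, adjusted p = 0.181) nor miR-133a-3p (0.04, adjusted p = 0.924) passed. In controls miR-1-3p averaged 1.79 CPM and miR-499-5p 315.1 CPM, and whether miR-499-5p came from muscle was not tested. The part of these cell types in the levels of the members was not tested.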

How the data were processed

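Small RNA libraries were made from total kidney RNA of 13 rats with a TruSeq small RNA kit, per the labels' protocols. The submitters' processing notes name Bowtie 1.1.1, Trim Galore 0.2.5 and the genome build rn4. Per feature and library, the deposited table gives whole-number counts. The sources used here do not give the counting step or the treatment of reads that map to several places.

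The 460 features of the rat mature category were used; the other 661 of 1121 features were not tested. Counts were analysed with edgeR 4.0.16 in R 4.3.3: filterByExpr by group (419 kept, 41 removed), TMM scaling (factors between 0.787 and 1.19) and quasi-likelihood tests from 1 fit of the 3 group means to all 13 libraries. The biological coefficient of variation was 0.247. Benjamini-Hochberg adjustment covered all 419 miRNAs of a comparison, and the threshold was 0.05. The comparison of both irradiated groups with control sets the average of their 2 means against the control mean. CPM was taken on TMM-scaled library sizes, with a prior count of 2 before log2. Intervals are at 95%: from the fit for fold changes, and exact Clopper-Pearson for levels and ratios in single libraries, which cover counting error only. Exact permutation tests of log2 CPM were two-sided, each for 1 miRNA, and not adjusted for the number of miRNAs. The procedure was tested on simulated counts.

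The miRNAs described are the 3 members and, of the other arms of their precursors, only miR-146a-3p by its counts. To these come, for each member, the 3 miRNAs of at least 10 CPM most correlated with it. From each of 9 lists at most the 3 with the smallest p in a comparison were chosen for description. The lists were 2 on NF-kB and 7 of cell type markers (leukocyte, kidney epithelial, endothelial, smooth muscle and fibroblast, erythroid, skeletal and cardiac muscle, hepatocyte). Members and lists were chosen with earlier results of these data known. Alternatives were RLE size factors, library totals, library sizes without the most abundant miRNA, tests without the low-count filter, a minimum mean of 10 CPM, DESeq2 1.42.0, limma-voom (limma 3.58.1), a fit of only the groups compared, and leaving out each library. No 2 libraries of a group were alike within counting noise: across miRNAs r was 0.972 to 0.996 and chi-square divided by its degrees of freedom 90.3 to 889.7.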

Additional observations from a re-analysis of the deposited data

How the results depend on the processing

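No paired analysis was possible because the labels number the rats through the series and give no number shared between groups. All 3 miRNAs kept a negative log2 fold change against control under each alternative run, 16 for irradiated, 17 for lisinopril and 20 for both groups. For both groups, miR-146a-5p was at -0.59 with library totals, -0.67 without the most abundant miRNA in library sizes and -0.77 with limma-voom, all no longer past the threshold, and between -0.91 and -0.67 with a library left out. miR-155-5p passed with DESeq2 at -0.59, and leaving out a library gave -0.74 to -0.46. With lisinopril against control, miR-146a-5p passed with DESeq2 at -0.81 and without control 3 at -0.92; leaving out a library gave -0.93 to -0.61. Among irradiated kidneys, with against without the drug, the sign of these small values turned: miR-146b-5p was at -0.06 with library totals and -0.01 to 0.31 with a library left out, miR-146a-5p at -0.20 to 0.13 and miR-155-5p at -0.17 to 0.10. Library totals moved the median of all miRNAs to 0.26 in irradiated against control (0.02 with TMM), where miR-146a-5p was at -0.47.

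The number of called miRNAs, 7 in irradiated against control, became 2 with library totals, 4 without the most abundant miRNA, 24 with DESeq2, 1 with only the groups compared and 1 to 60 with a library left out (60 without irradiated 4, 1 without control 4). With lisinopril against control it was 26, and 17 with a mean of at least 10 CPM, where fewer miRNAs are tested, 40 with only the groups compared and 13 (without control 4) to 32 with a library left out. For both groups it was 32, and 17, 19 and 21 with library totals, without the most abundant miRNA and with a mean of at least 10 CPM, and 17 (without control 4) to 54 (without irradiated 4) with a library left out. Between the irradiated groups it was 0, and 2 with RLE, library totals, without the most abundant miRNA, the 10 CPM mean and limma-voom, 9 with DESeq2 and 0 to 47 with a library left out (47 without irradiated 4). The cause of these changes in number was not tested. Depth limits miR-155-5p most, at 39 counts in control 2.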

Other observations

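The lymphocyte miRNA miR-150-5p ran opposite to the miR-146 paralogs from rat to rat, a relation noticed in the data and given without a test. Over 13 libraries its log2 CPM correlated with that of miR-146b-5p at r = -0.898 (rho -0.89). That was the lowest r of 282 miRNAs of at least 10 CPM. With miR-146a-5p its r was -0.775 (rho -0.731), rank 6 from the lowest, where miR-26b-3p was lowest (-0.84). For miR-150-5p, deviations from the group means gave -0.895 with miR-146b-5p and -0.842 with miR-146a-5p. Without lisinopril 1 and irradiated 2, the libraries farthest from the median of miR-150-5p, r was -0.836 and -0.653. In lisinopril 1, the rat with the lowest miR-146a-5p (327.1 CPM) and miR-146b-5p (93.5 CPM), miR-150-5p was at 1202.3 CPM, its highest level. In control 3, the lowest control for both paralogs, its level was 733.9 CPM, and the other controls had 377.5 to 419.1 CPM. With miR-155-5p the correlation was -0.283, and -0.0505 within groups.

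Some of the other leukocyte miRNAs on the list, also chosen after their values were seen, gave correlations with the paralogs that ranged from weak to strong. Within groups miR-223-3p correlated with miR-146b-5p at r = 0.834 and with miR-146a-5p at 0.74, and miR-142-5p at 0.641 and 0.587. miR-142-3p, from the other arm of the same precursor, gave 0.218 with miR-146b-5p and 0.141 with miR-146a-5p within groups. For miR-155-5p the within-group values were 0.192 with miR-223-3p, 0.584 with miR-142-5p and 0.572 with miR-142-3p. All these values come from the same 13 libraries and share their scaling. Correlations of miR-342-3p and miR-342-5p, also on the leukocyte list, are not given here. In both irradiated groups against control their log2 fold changes were 0.13 and -0.06.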
